A study of Sus scrofa with 28 samples.

Results

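Peaks of 1500 bp or more were examined in the 14 liver ATAC-seq libraries labelled 200. They were chosen by width alone, as the end minus the start of each row of the peak list, and wide peaks sharing at least 1 bp were joined into regions. This gave 879 wide peaks, 1.41% of the 62190 peaks of these libraries, in 490 regions. The whole list holds 84192 peaks of 28 libraries. The widths that chose the members are given below as a description, with no test. Wide and narrower peaks were tested on position, on recurrence and on widths in libraries that the choice did not use, and the share of wide peaks was compared between fat groups, to which the limit was applied alike. The 3 libraries with the most wide peaks held, just inside the limit, peaks of 1500 to 1504 bp and, just outside it, peaks of 1492 to 1499 bp. Within 100 bp of the limit, 256 peaks lay inside, 66.0% of them centred near a gene end, and 334 lay outside, with 66.2% centred there.

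ATAC-seq cuts open chromatin with a transposase that inserts sequencing adapters. The livers came from Zlotnicka White pigs, a native Polish breed, all female, at day 180 and a slaughter weight of about 100 kg, with one housing and feeding regime for all. The groups used here were high fat 200, low fat 200, high fat 600 and low fat 600, with 7 libraries each. The fat content stands under a tag named shear force, and neither its tissue nor the meaning of 200 and 600 is stated. The titles give each set of 14 libraries a number of its own, and its part in any difference between the sets cannot be told apart from that of the label. The titles run through the same 14 numbers in both sets, so a 200 and a 600 library may come from 1 animal, although the labels name no animals. No treatment or genotype other than the breed is given, and the tissue was digested to loose cells and frozen before the libraries were made.

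Most open sites in a tissue are short stretches free of nucleosomes at promoters and enhancers. Wider ones are known from promoters of steadily active genes and from clusters of neighbouring enhancers around genes that define a cell type. In hepatocytes, the main cell type of the liver, such genes encode plasma proteins and enzymes of metabolism. Peak width also depends on how many fragments a library holds and on how a peak caller joins neighbouring signal.

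Wide peaks were unevenly spread over the libraries. High fat replicates 1 to 7 held 135, 15, 20, 24, 17, 8 and 285 of them. Low fat replicates 1 to 7 held 123, 18, 10, 21, 9, 31 and 163. Replicates 1 and 7 of both fat groups thus held 706, or 80.3%, and the other 10 libraries held 173. These were the 4 libraries with the most listed peaks, 17652 and 11943 in high fat and 8221 and 6691 in low fat. High fat replicate 3 had 6288 listed peaks but only 20 wide ones, so the yield and the number of wide peaks did not always go together. The widest peak measured 9621 bp and the median wide peak 1726 bp, while the narrower peaks had a median of 506 bp. Of the 22002 peaks in the 600 libraries, 15.4% were as wide. The deposited −log10 p of wide peaks was also the higher in every 200 library, with medians of 5.02 to 6.82 for wide peaks and 3.74 to 4.71 for narrower ones.

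By place, 329 of the 490 regions (67.1%) had their centre within 1000 bp of either annotated end of a gene, since the gene table gives no strand. A further 110 (22.4%) were centred in a gene farther from its ends, and 23 (4.69%) lay outside genes. The remaining 28 regions (5.71%) formed 4 stretches outside genes, in which at least 2 wide regions followed each other more than 10000 bp from any gene end and with gaps of at most 150000 bp. This definition was made after the positions had been seen. The 28 regions of the stretches held 196 wide peaks, or 22.3% of all. Wide regions were found on all 19 chromosomes of the list, from 64 regions on chromosome 1 and 45 on chromosome 5 to 2 on chromosome 12.

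**Figure D1:**
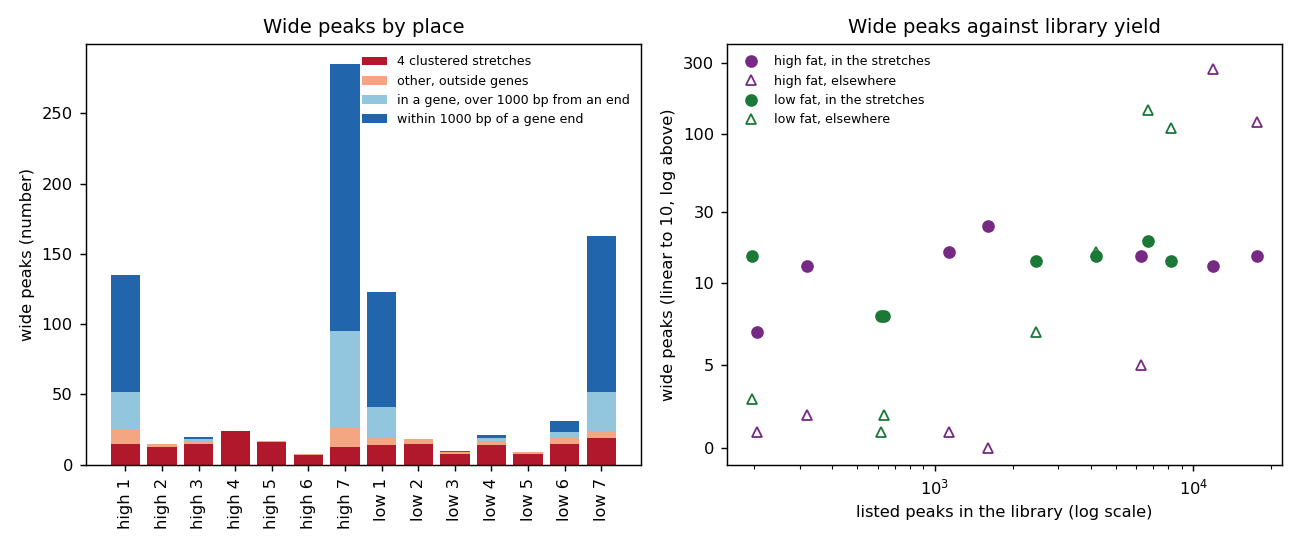
Left, number of wide peaks in each 200 library (high fat replicates, then low fat replicates), stacked by place; right, wide peaks in the 4 stretches (filled) and elsewhere (open) against the number of listed peaks, with a log horizontal axis and a vertical axis that is linear to 10 and log above. Wide peaks in the stretches number 7 to 24 in high fat and 8 to 19 in low fat libraries, while those elsewhere run from 0 to 272 in high fat and from 1 to 144 in low fat libraries.

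The 4 stretches were shared by nearly all libraries. The longest lies on chromosome 5 from 39796959 to 40199044 (Sscrofa11.1), 14157 to 150182 bp from the nearest gene ends. It held 18 wide regions with 82 wide peaks, and all 14 libraries had at least 2 wide peaks there. On chromosome 9, from 63231656 to 63426189, 5 regions held 70 wide peaks at 140452 to 247531 bp from gene ends, again from all 14 libraries. The stretch on chromosome 7, from 24587769 to 24606488, held 30 wide peaks in 3 regions. The shortest, on chromosome 8 from 54585792 to 54590675, held 14 wide peaks, from 12 of the 14 libraries. The median deposited −log10 p of their peaks, wide and narrower, ran from 4.67 on chromosome 8 to 5.31 on chromosome 7, with a highest value of 14.9 on chromosome 5.

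The number of wide peaks in the stretches ran from 7 to 24 over the libraries, while the number elsewhere ran from 0 to 272. High fat replicates 1 to 7 had 15, 13, 15, 24, 16, 7 and 13 there, and low fat replicates 1 to 7 had 14, 15, 8, 14, 8, 15 and 19. The mean was 14.7 ± 5.06 in high fat and 13.3 ± 3.99 in low fat libraries (SD, n = 7 each). Since the stretches were defined from these peaks, no test was made. The lowest counts were 7 in high fat replicate 6, with 205 listed peaks, and 8 in low fat replicates 3 and 5, with 635 and 617. But low fat replicate 2, with 196 listed peaks in all, had 15 of its 18 wide peaks in the stretches. High fat replicate 4 had all 24 of its wide peaks there. In the 10 libraries with fewer wide peaks the stretches made up 135 of 173 (78.0%), against 61 of 706 (8.64%) in the other 4.

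A set of 3 regions was wide in all 14 libraries, and each of them lies in a stretch. The first, on chromosome 9 from 63386166 to 63404368, holds the widest peak of all, and its nearest gene end, that of MROH9, is 224961 bp away. Its widest peak measured 4054, 3289, 2720, 8875, 9621, 3280 and 2763 bp in high fat replicates 1 to 7. In low fat replicates 1 to 7 it measured 5071, 7169, 4689, 2708, 4144, 5134 and 4433 bp. Libraries differed there in how the region was cut up, into 4 to 13 peaks, and the fat groups overlapped.

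Its neighbour on chromosome 9, from 63374898 to 63383934, gave 5791, 5340, 5422, 5746, 3615, 3616 and 4129 bp in high fat replicates 1 to 7. Low fat replicates 1 to 7 gave 7095, 7526, 5637, 4651, 5657, 6913 and 6993 bp. The widest peak tended to be longer in low fat libraries, with medians of 5340 bp in high fat and 6913 bp in low fat, but the ranges overlapped. High fat libraries cut the region into 3 to 6 peaks and low fat libraries into 2 to 5. Summed over all peaks there, the listed length was similar, at 6429 to 8635 bp in high fat and 6878 to 8890 bp in low fat libraries. Because width chose the region, no test was made. The third region, on chromosome 7 from 24602109 to 24606488, was the most even, with widest peaks of 1933 to 3117 bp in high fat and 2480 to 3121 bp in low fat libraries. In the 600 libraries both chromosome 9 regions were listed by 12 of 14 libraries and were wide in 12 and 11 of them. The chromosome 7 region was listed by 3 of the 600 libraries and was wide in 1.

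The next regions in order of recurrence also lie in the stretches, and in each of them the fat groups overlapped in width. The region on chromosome 8 from 54585792 to 54588625 was wide in 12 libraries, with widest peaks of 1429 to 2804 bp in the 7 high fat and 1961 to 2828 bp in the 6 low fat libraries that listed it. On chromosome 5, the region from 40077576 to 40088464 was wide in 4 high fat and 7 low fat libraries. Its widest peak was 1113 to 3484 bp in high fat (median 1525) and 1597 to 7609 bp in low fat libraries (median 2453). The region from 40194369 to 40199044, near a leucine tRNA gene 97643 bp away, was wide in 7 high fat and 4 low fat libraries. It measured 2920 to 4380 bp in high fat and, in the 5 low fat libraries that listed it, 946 to 3542 bp.

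All 14 libraries listed the region on chromosome 7 from 24587769 to 24592974, which was wide in 4 high fat and 6 low fat libraries, at 990 to 2639 bp in high fat and 1272 to 2975 bp in low fat. So they did with 3 more regions of the chromosome 5 stretch. That from 39906213 to 39910868 was wide in 9 libraries, with 870 to 4268 bp in high fat and 770 to 2410 bp in low fat. That from 40063587 to 40069080 was wide in 7, with 693 to 3028 bp in high fat and 840 to 3802 bp in low fat. That from 40070247 to 40077393 was wide in 6, with 1353 to 3257 bp in high fat and 1155 to 3846 bp in low fat. On chromosome 9, the region from 63231656 to 63235089 was wide in 3 libraries of each fat group. The region from 63370999 to 63374394, at 247531 bp the farthest of the stretch regions from a gene end, was wide in 3 high fat and 1 low fat libraries.

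Recurrence fell off quickly outside the stretches. Of all 490 regions, 331 (67.6%) were wide in 1 library, 92 in 2 and 67 in 3 or more, while 11 were wide in at least 7. Of these 11, 9 lie in the stretches. No region at a gene end and none inside a gene was wide in more than 5 libraries. Being wide in 1 library did not mean being listed in 1, since a gene-end region was listed, at any width, by a median of 6 libraries and only 4 of the 329 were listed by a single one. In 1637 cases a library listed a gene-end region without a wide peak, and in 1394 of them (85.2%) it listed 1 narrower peak there. In the stretches this was so in 84 of 158 such cases (53.2%), and in the other cases the library listed several narrower peaks.

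**Figure D2:**
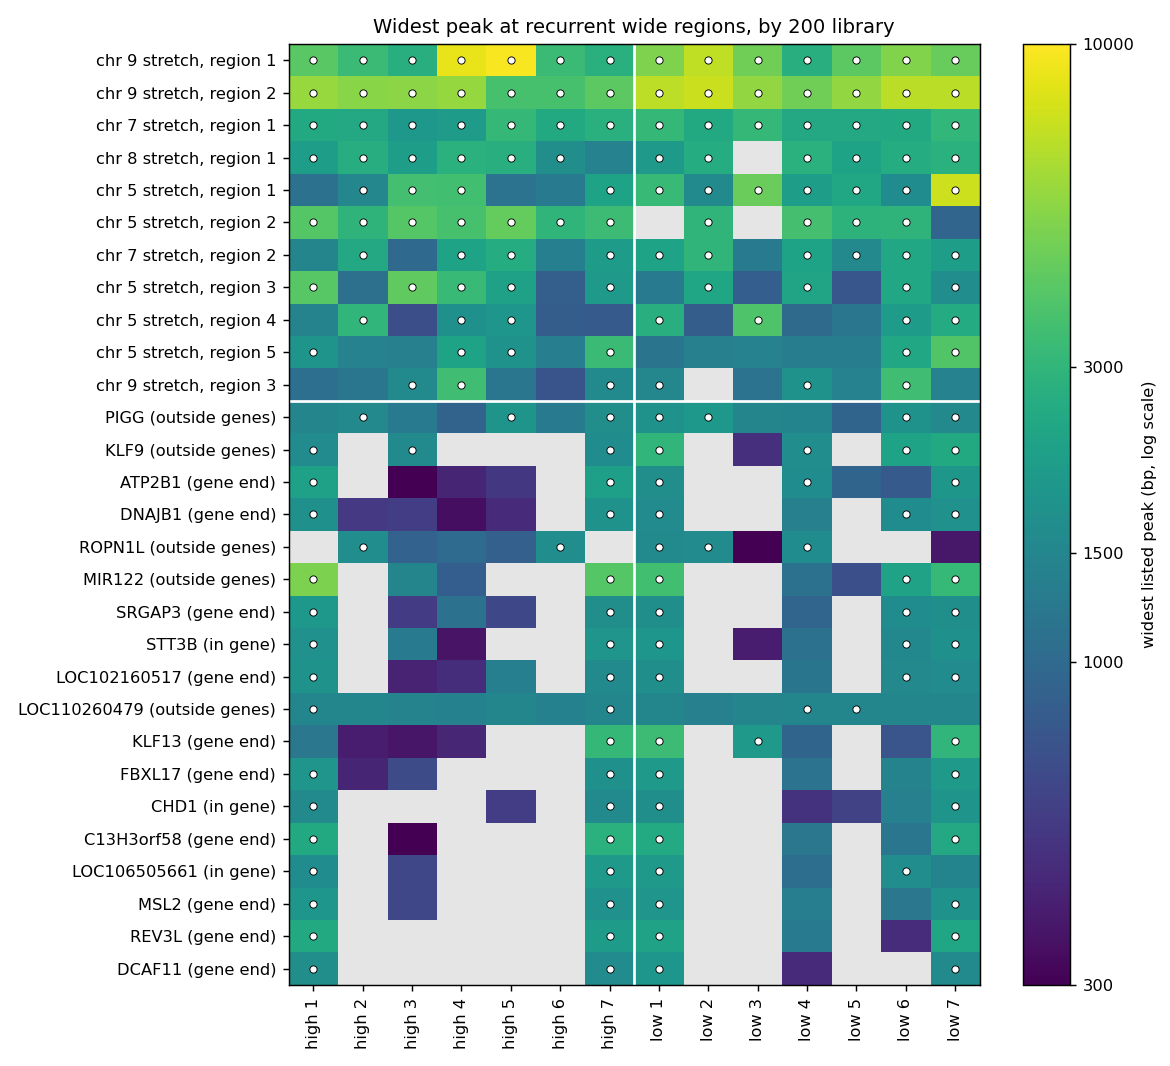
Widest listed peak in bp (colour, log scale) at the recurrent wide regions (rows) in each 200 library (columns, high fat left of low fat); a dot marks a peak of 1500 bp or more and grey means no listed peak. Rows above the white line are regions of the stretches, of which 3 are wide in all 14 libraries, and rows below it are regions elsewhere, wide in 4 to 7 libraries.

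Outside the stretches, the regions near PIGG and KLF9 were wide in 7 libraries each, 3 of high fat and 4 of low fat. KLF9 encodes a Krüppel-like transcription factor that responds to glucocorticoid and thyroid hormone, and its region lies on chromosome 1 from 223752620 to 223755629, 6464 bp from the gene's nearest end. The widest peak there was 1631, 1601 and 1659 bp in high fat replicates 1, 3 and 7. In low fat replicates 1, 3, 4, 6 and 7 it was 3010, 478, 1671, 2290 and 2533 bp, and no other 200 library listed the region. Among libraries that listed it, the widest peak was longer than every high fat one in 4 low fat libraries and shorter in 1. High fat replicates 1 and 7 and low fat replicate 4 listed 2 peaks there. Summed over all peaks, the listed lengths in the same order were 2519, 1601 and 2537 bp in high fat libraries. In low fat libraries they were 3010, 478, 2206, 2290 and 2533 bp, so by listed length the fat groups overlapped. Of the 600 libraries 7 listed it, 6 of them with a wide peak.

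PIGG encodes an enzyme of glycosylphosphatidylinositol anchor synthesis. Its region starts 12720 bp from the start of chromosome 8, ends at 14723 and lies 7715 bp from the gene. All 14 libraries listed it, at 917 to 1847 bp in high fat (median 1470) and 929 to 1957 bp in low fat (median 1566). A like site was found at the start of chromosome 16, from 8125 to 9806, where ROPN1L, a gene of sperm flagella, is the nearest gene at 34333 bp. Its peaks of 1600 bp or more in high fat replicates 2 and 6 (1665 and 1680 bp) and in low fat replicates 1, 2 and 4 (1609, 1628 and 1648 bp) were strong, with a highest −log10 p of 55.2. High fat replicates 1 and 7, which had the highest yields, did not list it, nor did low fat replicates 5 and 6, with 617 and 4208 listed peaks.

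The strongest wide region of all lies on chromosome 4 from 53952864 to 53954373, 627004 bp from any gene end. Its median deposited −log10 p was 336, while the median over gene-end regions was 5.32. High fat replicates 1 to 7 listed it at 1510, 1490, 1430, 1393, 1498, 1400 and 1500 bp, and low fat replicates 1 to 7 at 1495, 1391, 1484, 1503, 1500, 1492 and 1497 bp. All 14 peaks thus ended close to the limit, and 4 of them passed it, 2 in each fat group. All 14 of the 600 libraries listed the site with a wide peak.

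The most recurrent regions at gene ends were wide in 5 libraries. They were those of DNAJB1, a heat shock cochaperone, ATP2B1, a calcium pump of the plasma membrane, the lncRNA gene LOC102160517, and SRGAP3 with SETD5, the second of which encodes a SET domain protein. The SRGAP3 region overlaps both genes. At DNAJB1 (chromosome 2, 64760914 to 64762762) the peak measured 1735, 534, 570, 343, 462 and 1805 bp in high fat replicates 1 to 5 and 7. It measured 1618, 1391, 1648 and 1760 bp in low fat replicates 1, 4, 6 and 7. The site was thus listed in 10 libraries and wide in 5, all of which had at least 4208 listed peaks. High fat replicate 3, with 6288 listed peaks, had only the 570 bp peak there. At ATP2B1 (chromosome 5, 92934941 to 92937229) the widths were 2244, 271, 433, 533 and 2172 bp in high fat replicates 1, 3, 4, 5 and 7. They were 1690, 1661, 929, 813 and 1918 bp in low fat replicates 1, 4, 5, 6 and 7.

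A second group at gene ends was wide in 4 libraries. It held KLF13, a Krüppel-like transcription factor, REV3L, the catalytic subunit of a DNA polymerase for damaged templates, MSL2, a ubiquitin ligase of a histone acetylation complex, FBXL17 and DCAF11, substrate receptors of ubiquitin ligases, and C13H3orf58. These and the other regions wide in 4 or more libraries outside the stretches were chosen for this list after their values had been seen. At KLF13 (chromosome 1, 143538760 to 143542181) a single peak of 3105 bp in high fat replicate 7 and peaks of 3322 and 3003 bp in low fat replicates 1 and 7 covered most of the region. High fat replicate 1 listed 3 separate peaks there instead, the widest of 1206 bp. REV3L (chromosome 1, 77399148 to 77401737) had 2541 and 2085 bp in high fat replicates 1 and 7. In low fat replicates 1, 4, 6 and 7 it had 2266, 1254, 467 and 2388 bp.

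Inside genes, STT3B, a catalytic subunit of the enzyme that attaches sugar chains to proteins, was wide in 5 libraries (chromosome 13, 17533379 to 17535337). CHD1, a chromatin remodeller (chromosome 2, 105202121 to 105204010), and BHLHE40, a repressor of the circadian clock (chromosome 13, 61526574 to 61528707, shared with LOC106505661), were wide in 4. Of the 110 regions inside genes, 63 lay within 5000 bp of an end. The farthest lay in ARID1B, a subunit of the SWI/SNF remodelling complex, 201890 bp from an end (chromosome 1, 9992584 to 9994449). There high fat replicate 7 listed 1 peak of 1866 bp, and the other 4 high fat libraries that listed the site had peaks of 379 to 533 bp. The 4 low fat libraries that listed it had peaks of 462 to 547 bp. Other regions deep in genes, named after their values had been seen, lay in NFE2L2, the regulator of the oxidative stress response (chromosome 15, 83007866 to 83009904, wide in 3 libraries), and in RXRA, the partner of many nuclear receptors (chromosome 1, 273720326 to 273721884, wide in 1).

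Of the 329 gene-end regions, 88 (26.7%) contained ends of 2 or more genes. A median of 74.8% of their length lay in genes. The nearest gene was protein-coding for 307 and an lncRNA gene for 18, and 32 of the nearest genes had no symbol other than a locus number. The longest of them, at HP and TXNL4B, measured 5699 bp, and KLF13 followed. Another long one, named after its values had been seen, was that of RAP2B, a small GTPase, with a widest peak of 2866 bp.

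Outside the stretches, 5 loci had 2 or more wide regions within 10000 bp of each other, and they were MAT1A, ALB, PCK1, FGA and HPX. MAT1A makes S-adenosylmethionine in liver, ALB is albumin, PCK1 starts gluconeogenesis, FGA is a fibrinogen chain and HPX is the haem carrier hemopexin. The loci were found in these data and were not fixed as a list, so their make-up is a description. To them are added HP, the haemoglobin carrier haptoglobin, and MIR122, the most abundant microRNA of hepatocytes, whose regions were among the 10 widest.

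At MIR122 (chromosome 1, 162325445 to 162330445, 5001 bp) the region takes in the whole microRNA gene (162329776 to 162329860). The widest peak was 5001, 1475, 856 and 3973 bp in high fat replicates 1, 3, 4 and 7. It was 3451, 1123, 705, 2258 and 3156 bp in low fat replicates 1, 4, 5, 6 and 7. Both fat groups thus held libraries with long and with short peaks. In the 600 libraries all 9 that listed the locus had a wide peak, at 7216, 1916, 3072 and 7018 bp in high fat replicates 1, 3, 5 and 7. The low fat 600 replicates 1, 3, 4, 6 and 7 had 5532, 1515, 2239, 2632 and 5458 bp.

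At HP (chromosome 6, 14982167 to 14987865) the widest peak was 3202 and 5629 bp in high fat replicates 1 and 7, and 2245, 873 and 1264 bp in low fat replicates 1, 4 and 7. At MAT1A (chromosome 14) the 3 wide regions span 82106067 to 82113013, from outside the gene into it. High fat replicates 1 and 7 had widest peaks of 1812 and 2487 bp there, and low fat replicates 1, 6 and 7 had 1816, 1007 and 1519 bp. High fat 600 replicates 1 and 7 listed the MAT1A locus as single peaks of 11378 and 8663 bp. The gaps between the 200 peaks were thus bridged in those 600 libraries.

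The other loci rested on fewer libraries. At ALB (chromosome 8, 69657003 to 69664817) all 3 wide peaks came from high fat replicate 7, the widest of 1707 bp. High fat replicate 1 had a widest peak of 703 bp there, and low fat replicates 1 and 7 had 1334 and 523 bp. Of the 600 libraries 4 listed the ALB locus, all with a wide peak of up to 4433 bp. FGA (chromosome 8, 74580895 to 74585146) and PCK1 (chromosome 17, 57931347 to 57936342) likewise had wide 200 peaks in high fat replicate 7 alone. PCK1 was listed by that library only, and by the 600 library of the same group and number as 1 peak of 9531 bp. At HPX (chromosome 9, 3287893 to 3296824) high fat replicate 1 had a peak of 1585 bp and low fat replicate 7 one of 1840 bp.

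**Figure D3:**
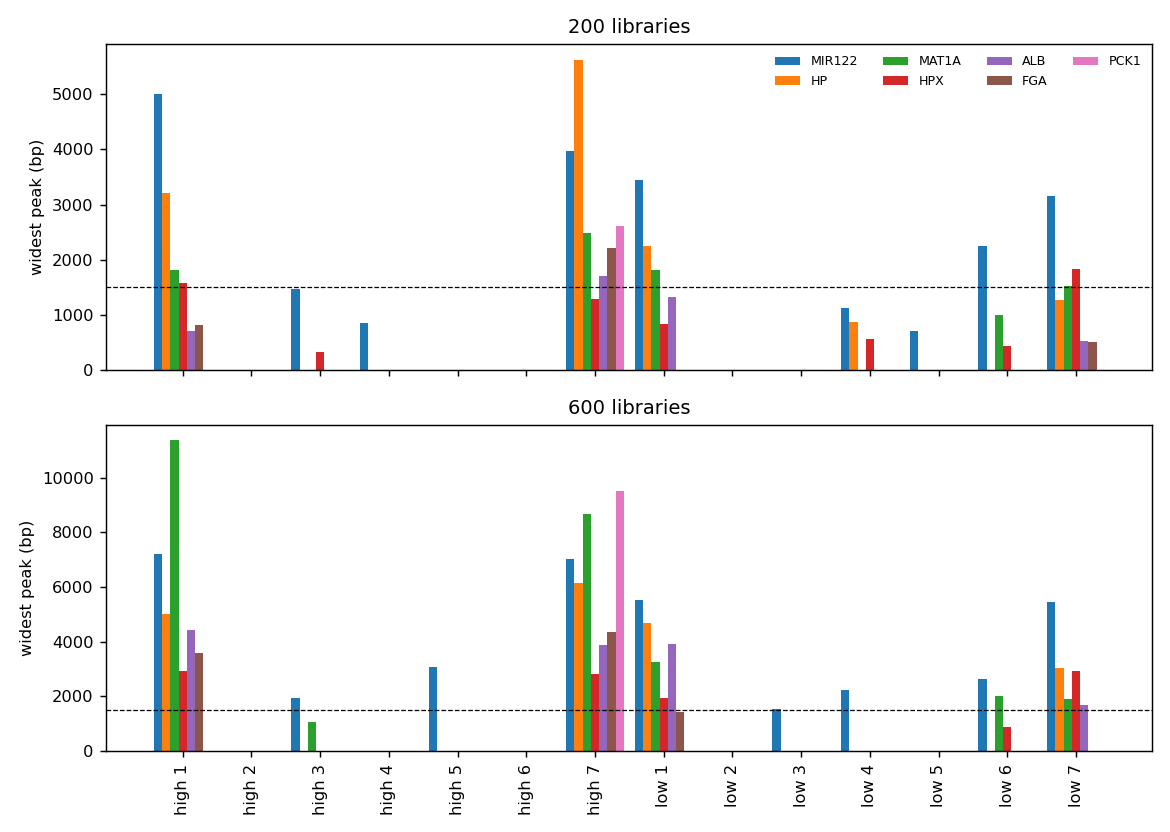
Widest peak in bp at 7 liver loci in the 200 libraries (top) and the 600 libraries (bottom), high fat replicates left of low fat; no bar means no listed peak and the dashed line marks 1500 bp. Wide peaks at loci other than MIR122 and MAT1A stand in replicates 1 and 7 of both fat groups, and the tallest bars are MAT1A, with 11378 bp, in the 600 set and HP, with 5629 bp, in the 200 set.

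Gene lists, chosen with earlier results of these data known, gave small counts of genes with a wide peak centred within 1000 bp of an end. Over all 19484 protein-coding genes the count was 386 (1.98%), or 4.30% of the 8984 genes with any end peak. Of the 14 chaperone genes matched, 4 had a wide end peak, namely DNAJB1, HSPA8, HSPD1 and HSPE1, the last 2 sharing 1 peak of 1602 bp between them. Of 14 immediate early and stress genes there were 3, the transcription factors JUND (2095 bp) and EGR1 (1744 bp) and the growth inhibitor BTG2 (1732 bp). Of 14 clock genes there were 2, ARNTL, the activator of the clock, with 1888 bp, and NR1D2, a repressor, with 1949 bp. BHLHE40 is on the same list with its wide peaks over 1000 bp from an end.

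Among 16 splicing factors, HNRNPA1 (1880 bp) and HNRNPA2B1 (1571 bp), which bind pre-mRNA, had a wide end peak. Among 15 genes of lipid and sterol synthesis it was INSIG1 (1727 bp), which holds back sterol synthesis, and among 14 of translation it was EEF1A1 (1511 bp), an elongation factor. None of the 15 hepatocyte transcription factors had one. Of these, 10 had a narrower end peak, such as NR5A2 with up to 897 bp and CEBPB with up to 1067 bp. DNAJB1 had a wide end peak in 5 libraries, and EGR1 and NR1D2 had one in 2 each. Every other list gene named here with a wide end peak had it in 1 library. That library was replicate 1 or 7 of high fat or replicate 7 of low fat. Each list is short, so a single gene moves its share by several percentage points.

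Markers of liver cell types were read in the same way. Of 15 hepatocyte markers, 10 had an end peak in a 200 library and 3 a wide one (ALB, FGA and HPX, each in 1 library). Of all protein-coding genes, 46.1% had an end peak and 1.98% a wide one. Of the markers of other cells, 2 of 12 Kupffer cell, 0 of 12 endothelial and stellate cell, 0 of 5 cholangiocyte, 3 of 10 lymphocyte and 1 of 8 erythroid genes had an end peak, and none had a wide one. PECAM1, KRT19, CD3E and HBB had no end peak in any 200 library. The hepatocyte markers APOB, AHSG, CPS1, ASGR1 and ASGR2 had none either. ALB had one in 3 libraries, and the Kupffer cell marker CD14 had one in 4. GATA1 had an end peak in 2 libraries, and CSF1R, CD3D, NKG7 and CCL5 in 1 each. Hepatocyte markers thus had the highest share of genes with an end peak among these marker lists, at 66.7%. Among the gene lists above, the share ran from 66.7% for hepatocyte transcription factors to 100% for chaperones.

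Wide peaks were next set against the narrower peaks of the same library, in the 12 libraries with at least 10 wide peaks, by an exact sign-flip permutation of the differences over libraries (two-sided, adjusted over 8 comparisons). The share centred outside genes was 71.2% for wide and 45.1% for narrower peaks on average, a difference of 26.1 ± 26.2 percentage points (SD, n = 12 libraries, higher for wide peaks in 8 of 12; exact permutation p = 0.00830, adjusted p = 0.0133). Without the stretches, in the 5 libraries that kept 10 wide peaks, the difference was -11.2 points (exact permutation adjusted p = 0.1). This setting changed the set of libraries as well as the peaks. With the stretches kept, the difference was already -8.19 and -8.11 points in high fat replicates 1 and 7. It was -4.98 and -3.75 points in low fat replicates 1 and 7, so the change of direction rests in part on which libraries remained.

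The share near gene ends split the libraries in the same way. It was 26.6% for wide and 45.3% for narrower peaks on average, a difference of -18.7 ± 29.5 points (n = 12, exact permutation p = 0.0522, adjusted p = 0.0697). In high fat replicates 1 and 7 it was 62.2% and 67.0% for wide peaks and 39.1% and 49.5% for narrower ones. In low fat replicates 1 and 7 it was 66.7% and 68.1% for wide peaks and 57.3% and 57.0% for narrower ones. In the other 8 libraries the share was between 0% and 25.8% for wide peaks and lower than for narrower peaks in each. With these 4 libraries alone the difference was +15.3 points, with an exact permutation p of 0.125, the smallest that 4 libraries allow. Among peaks with a gene end nearby, the mean number of ends within 1000 bp was 1.18 for wide and 1.28 for narrower peaks, a difference of -0.0914 ± 0.152 (n = 8 libraries, exact permutation adjusted p = 0.268).

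**Figure D4:**
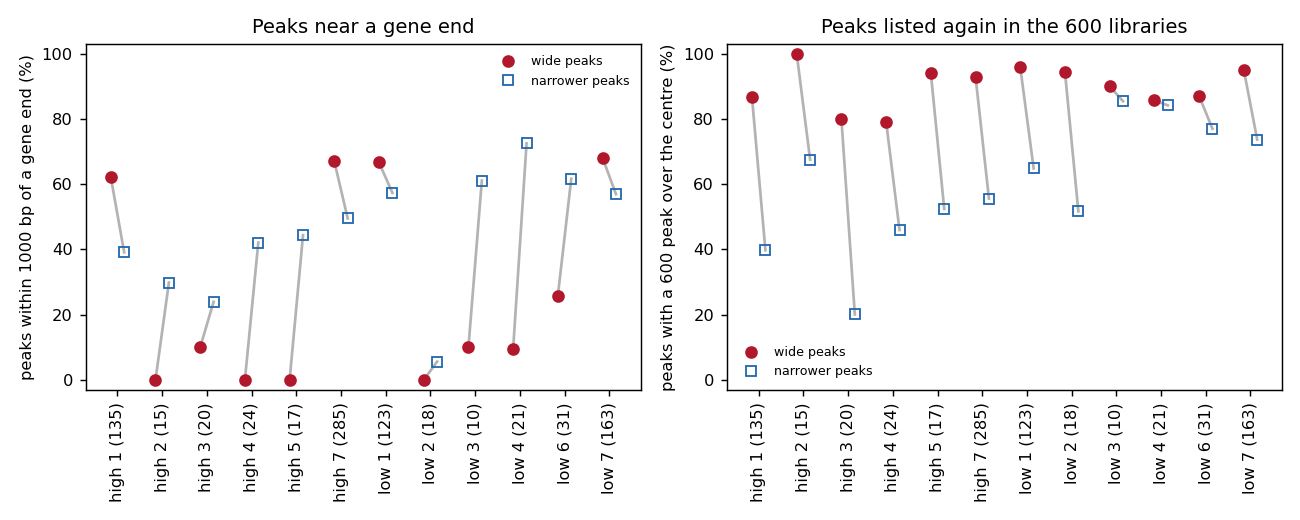
Percent of wide (filled) and narrower (open) peaks centred within 1000 bp of a gene end (left) and with a peak of a 600 library over their centre (right), in the 12 libraries labelled 200 that held 10 or more wide peaks, whose number stands in brackets; lines join the values of 1 library. On the left 4 libraries, high fat 1 and 7 and low fat 1 and 7, have the wide peaks above the narrower ones, and on the right all 12 do.

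Wide peaks recurred more in other libraries. To keep width itself from counting, recurrence was read at the base in the middle of each peak. On average 7.62 of the other 13 libraries labelled 200 had a peak over the centre of a wide peak, and 4.35 over that of a narrower one. The difference was 3.27 ± 2.10 libraries, higher for wide peaks in 12 of 12 (exact permutation p = 0.000488, the smallest that 12 libraries allow, adjusted p = 0.000977). It was 10.8 against 4.58 in high fat replicate 5, but 7.60 against 7.58 in low fat replicate 3. Against narrower peaks at or above the median −log10 p, the difference was 1.93 libraries (adjusted p = 0.0146 by the same exact permutation), so peak strength moved with it. Without the stretches it was 1.49 libraries over 5 libraries (exact permutation adjusted p = 0.1), and in the 4 libraries with at least 50 wide peaks it was 1.84 (exact permutation adjusted p = 0.143), both too few libraries to pass.

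In the 600 libraries, which played no part in the choice, 90.1% of wide and 59.8% of narrower 200 peaks had a peak over their centre, a difference of 30.3 ± 17.8 points (higher in 12 of 12, exact permutation adjusted p = 0.000977). The widest gap was in high fat replicate 3, with 80.0% of wide and 20.1% of narrower peaks, and the smallest in low fat replicate 4, with 85.7% and 84.2%. Against the stronger narrower peaks the difference was 17.9 points (exact permutation adjusted p = 0.0130). Of the 490 regions, 454 (92.7%) were listed in a 600 library and 372 (75.9%) were wide in one. Of the 28077 regions with narrower peaks alone, 26.9% were listed in a 600 library and 62.4% by a single 200 library. These counts take any overlap, which longer regions meet more easily, so they are a description beside the values read at the centre. Where a 200 and a 600 library come from 1 animal, these listings are not independent of the choice in that animal.

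The same regions held longer peaks in libraries that did not choose them. In the 600 set, the median width was 1396 bp for peaks centred in wide regions and 944.5 bp for those in narrower-only regions, averaged over 13 libraries with at least 10 of each. The difference was 452 ± 246 bp, positive in 13 of 13 (exact permutation p = 0.000244, the smallest possible, adjusted p = 0.000977). In the 200 set each library was left out in turn, and regions were chosen from the other 13. Its own peaks then had a median width of 777 bp in wide and 482 bp in narrower regions, a difference of 295 ± 174 bp, positive in 14 of 14 (exact permutation p = 0.000122, the smallest possible, adjusted p = 0.000977). The difference was largest in low fat replicate 2, with 952.5 and 335 bp, and high fat replicate 7, with 1150 and 597 bp. It was small in high fat replicates 3 and 4, with 540 and 450 bp and with 534.5 and 448 bp.

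**Figure D5:**
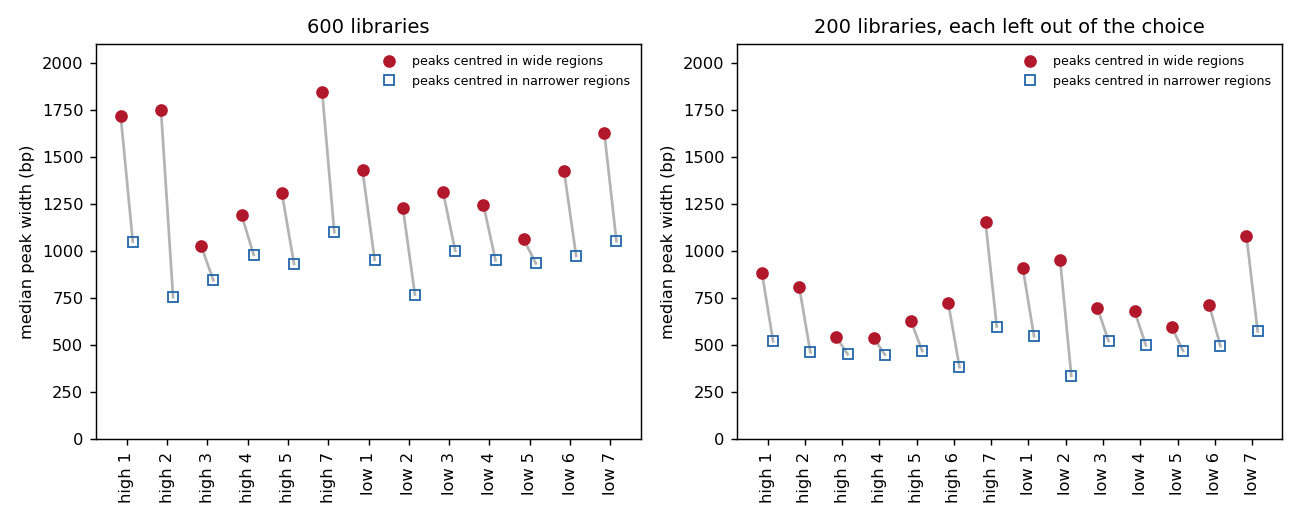
Median width in bp of peaks centred in wide regions (filled) and in narrower-only regions (open), in 13 libraries of the 600 set (left) and in the 14 libraries of the 200 set, each left out of the choice of regions (right); lines join the values of 1 library. The filled points lie above the open ones in all libraries, on average at 1396 against 944.5 bp on the left and at 777 against 482 bp on the right.

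High and low fat were compared over libraries. Wide peaks made up 2.15% ± 1.62 of the peaks in high fat and 2.53% ± 2.98 in low fat libraries (SD, n = 7 each), a difference of -0.385 percentage points (exact permutation p = 0.830, adjusted p = 0.830, two-sided). The direction rests on low fat replicate 2, without which the difference was 0.724 points. The number of wide peaks was 72.0 ± 104 in high fat and 53.6 ± 62.6 in low fat libraries. Regions wide only in high fat libraries numbered 244 and those wide only in low fat libraries 113, while 133 were wide in both. High fat replicate 7 alone supplied 169 of the 244, and low fat replicates 7 and 1 supplied 58 and 42 of the 113.

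Each region was also tested for how many libraries of each fat group listed it at any width. Of 7465 regions listed by at least 3 libraries, 0.0134% (1 region) passed an unadjusted p of 0.05 in Fisher's exact test and 0% passed after Benjamini-Hochberg adjustment. Chained with the narrower peaks, 489 regions held a wide peak and 449 of them were tested. None passed either limit. The lowest p among them, 0.0699 (Fisher's exact test, adjusted p = 1), belonged to a region of the chromosome 5 stretch, from 40122094 to 40126545, listed by 4 high fat and 0 low fat libraries. Of the tested regions with a wide peak, 80 (17.8%) were listed by more high fat than low fat libraries and 227 (50.6%) by fewer. Over all tested regions the shares were 30.9% and 40.6%. The smallest p that 7 against 7 libraries can give for a region is 0.000583. Over 7465 regions, a single region could thus not pass after adjustment, and the 0% does not decide whether fat groups differ at single regions. The labels do not say that libraries are separate cultures or animals, so p-values measure the spread between these libraries.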

How the data were processed

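The input was 1 deposited peak list of 28 ATAC-seq libraries. The submitters' processing notes name, without versions or roles, the build Sscrofa11.1 and the tools BWA, Genrich, Picard, SAMtools and FastQC. Per the file headers, the list gives start, end, summit, a score, a signal value and a p-value per peak. The deposited score was never below 800 and equalled 1000 times the signal over the width in 99.9946% of scores below its cap. The deposited signal value was 400 or more, and the deposited p-value column, which reached 7881, holds −log10 p. Both are the authors' own values per peak. The signal value was used only to check the score. The −log10 p was used to describe peaks and, in an alternative, to select the stronger narrower peaks. Read counts and sequencing depth are unknown, so a peak that is not listed may be closed or thinly sequenced, widths move with depth, and no interval from counts is given.

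Starts count from 0 in the list and are printed from 1. Wide peaks (1500 bp or more) were chained at 1 bp of overlap. Peaks were placed by their centre against 28073 genes of the RefSeq table of Sscrofa11.1, within 1000 bp of either gene end, since it holds no strand. Libraries with at least 10 peaks of each kind entered paired comparisons, which were checked on simulated data. The text names the 15 regions wide in most libraries, the 10 widest, the 5 farthest from a gene end, list members with a wide end peak, and others as said. The members and gene lists were chosen with earlier results of these data known. A planned count of CpG in promoter sequences was not run. Replicate numbers were not used to pair the fat groups, except in the alternative with the number as a block. Computation used Python 3.11.15 with scipy 1.17.1, pandas 2.3.3 and numpy 2.4.6, and figures used matplotlib 3.10.9.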

Additional observations from a re-analysis of the deposited data

Results flagged for a closer look

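Of 90 groups of 4 to 7 libraries, 8 held a library that stood apart from the rest by Dixon's criterion. Chance meets it in about 1 of 20 groups with no prior choice. Many of these groups were widths at regions that width had chosen, so the 8 cannot be set against that rate. Low fat 200 replicate 2, with 196 listed peaks, had 9.18% wide peaks, and the other low fat libraries had 0.737% to 2.44%. In ARID1B, high fat replicate 7 had a widest peak of 1866 bp, and the other high fat libraries that listed the site had 379 to 533 bp. At SRGAP3, low fat replicate 4 had 944 bp and the other low fat libraries had 1653 to 1720 bp. At the chromosome 4 site (53952864 to 53954373), low fat replicate 2 had 1391 bp and the other low fat libraries 1484 to 1503 bp. High fat libraries had 1393 to 1510 bp there.

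The remaining 4 lie in the stretches. On chromosome 5 from 39995988 to 40000172, low fat replicate 7 had a single peak of 3733 bp, and the other low fat libraries had several with a widest of 442 to 1583 bp. On chromosome 5 from 40194369 to 40199044, the same library had 946 bp and the other low fat libraries that listed it 2909 to 3542 bp. On chromosome 9 from 63231656 to 63235089, high fat replicate 4 had 3421 bp and low fat replicate 6 had 3428 bp. The other high fat libraries had 745 to 1604 bp there and the other low fat libraries 1143 to 1796 bp.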

How the results depend on the processing

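The greater width in left-out 200 libraries kept its direction and its call in all 10 alternatives (222.5 to 539 bp). The greater width in the 600 libraries kept its direction (351 to 868 bp) and missed the threshold with at least 50 peaks of each kind (484 bp, 7 libraries) and with libraries of at least 1000 peaks (516 bp, 6 libraries; exact permutation adjusted p = 0.0625 for both). The alternatives without the stretches, with libraries of at least 1000 peaks and with a peak over the region centre were chosen after the data had been seen.

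With at least 50 peaks of each kind 4 libraries remained, too few to pass. The differences were then 15.3 points for gene ends, -6.26 points outside genes, 0.0283 gene ends, 1.84 libraries for recurrence and 34.2 points for listing in the 600 set. Without the stretches, over 5 libraries, they were 15.01 points, -11.2 points, 0.0160 gene ends, 1.49 libraries and 33.0 points, with the smallest possible p above the threshold. With libraries of at least 1000 peaks the difference outside genes was 22.7 points (9 libraries, exact permutation adjusted p = 0.1).

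The lower share near gene ends passed the threshold against the stronger narrower peaks (-20.6 points), against narrower peaks of 500 bp or more (-24.9), and with windows of 500 bp (-21.6) and 5000 bp (-25.2). The number of gene ends nearby turned to 0.155 with wide peaks from 2000 bp, 0.0684 with a window of 2500 bp and 0.00433 with one of 5000 bp. The cause was not tested.

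With each library left out in turn, the gene-end difference ran from -22.5 to -14.7 points and passed without high fat replicate 1 (-22.5 points) or high fat replicate 7 (-22.0 points). The difference in the wide share ran from -0.808 to 0.724 points and turned without low fat replicate 2 (0.724 points), with no call in any case. The other ranges were 23.4 to 29.2 points outside genes, 2.58 to 3.33 libraries, 27.3 to 33.4 points in the 600 set, 407 to 511 bp, 269 to 311 bp and -0.110 to -0.0593 gene ends, with no call changed. Adjusted calls by fat were 0 throughout, and unadjusted ones 0 to 18. Replicates with 1 number in both fat groups correlated by -0.134 to 0.241, over 0.1 in 3 of 7 pairs, and 2 of 7 matched their own number best. With the replicate number as a block, the wide share differed by -0.385 points (exact permutation p = 0.594) and 0 regions passed.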
